A study of Mus musculus with 8 samples.

Results

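The 6 genes described here are Atoh1, Barhl1, Barhl2, Pax6, Meis1 and Mfap4, a named list of genes used to recognise the precursors of cerebellar granule neurons. They were taken by name from a table of 24062 genes, and all 6 were found in it and passed the filter on low counts. Whole cerebella of single mouse pups at postnatal day 2, of mixed C57BL/6 strain, were profiled by polyA RNA sequencing. Per the series text, the 4 mutant pups were Math1-Cre; Sufu flox/- and the 4 control littermates Sufu flox/+. Math1 is another name of Atoh1, and the Cre is driven by regulatory sequence of that gene, so Sufu could be lost only in cells that had used it, whereas the minus allele was in every cell of the mutants. By the cross that the protocol gives, every pup of both groups also received a Math1 mgfp allele from the parent homozygous for it. What that allele contains, whether its transcripts are counted at Atoh1, and whether controls carried Cre are not given in the sources used here. This comparison asks how this loss of Sufu alters gene expression in the newborn cerebellum, here in the genes that mark the cells in which the Cre acts.

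Granule neurons arise from the rhombic lip at the edge of the developing hindbrain roof. Their precursors cover the surface of the cerebellum after birth as the external granular layer, where they divide in response to Sonic hedgehog from Purkinje cells before they move inward and differentiate. Atoh1 is a basic helix-loop-helix transcription factor that these precursors need and that is switched off when they leave the cell cycle. Barhl1 and Barhl2 are homeodomain factors that act downstream of Atoh1, Pax6 is a paired-domain and homeodomain factor kept on in differentiating granule neurons, and Meis1 is a homeodomain cofactor of the TALE class. Mfap4 encodes a secreted microfibril-associated protein and is also made by fibroblasts. Sufu holds back the Gli transcription factors of the Hedgehog pathway.

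Atoh1 binds DNA with an E protein partner at the E-box, CANNTG, and the promoters of the Barhl genes are shown because both genes lie downstream of it. The RefSeq start-site table (build GRCm38.p6) held windows for Atoh1, Barhl1, Barhl2, Pax6 and Meis1. The windows below are the 250 bases before each start, written 5′ to 3′ on the strand of the gene, with matches to CANNTG in capitals. The first start of Barhl1 has the window chr2:28916669-28916918, minus strand, the second chr2:28912496-28912745, minus strand, and the start of Barhl2 chr5:106458167-106458416, minus strand.
Barhl1 first start: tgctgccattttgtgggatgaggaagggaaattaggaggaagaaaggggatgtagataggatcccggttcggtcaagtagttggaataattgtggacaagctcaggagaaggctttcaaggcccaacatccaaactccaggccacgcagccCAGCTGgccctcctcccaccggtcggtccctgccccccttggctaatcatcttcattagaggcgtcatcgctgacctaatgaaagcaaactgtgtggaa
Barhl1 second start: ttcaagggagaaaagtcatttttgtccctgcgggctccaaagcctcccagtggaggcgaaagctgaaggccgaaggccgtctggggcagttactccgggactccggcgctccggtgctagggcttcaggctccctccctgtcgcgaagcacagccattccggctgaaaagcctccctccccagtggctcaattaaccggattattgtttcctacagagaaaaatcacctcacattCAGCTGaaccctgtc
Barhl2: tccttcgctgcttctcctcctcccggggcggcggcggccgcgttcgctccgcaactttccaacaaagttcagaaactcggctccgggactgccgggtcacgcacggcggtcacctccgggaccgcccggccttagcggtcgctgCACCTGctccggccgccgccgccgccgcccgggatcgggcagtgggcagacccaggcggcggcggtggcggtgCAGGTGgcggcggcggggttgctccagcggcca
Each Barhl1 window held 1 match, and both matches were CAGCTG, while the 2 matches in the Barhl2 window were CACCTG and CAGGTG, each the reverse complement of the other. Of the 7 windows of these genes, only those of Barhl1, both of 1 gene, held CAGCTG, against 13.0% of all 32851 windows of this length. CAGATG, another form of CANNTG that was searched, was in none of the 7, against 14.4% of all windows. TGACAG, also searched, was in 1 window, that of the second start of Pax6, against 15.9% of all windows. CANNTG itself, which includes CAGCTG, is common and was in 66.2% of all windows, searched on both strands. The windows of Atoh1 and of the first start of Pax6 held no CANNTG, that of Meis1 held 1 match and that of the second start of Pax6 held 1. The Gli consensus GACCACCCA, in 0.225% of all windows, was in none of the 7. These letters are a description of the windows and were not set against the measured levels.

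The libraries held 21479565 to 26638284 gene counts, and every member had at least 235 counts in each library. Sufu, the targeted gene, was lower in each mutant (31.7 to 39.8 CPM) than in any control (47.7 to 60.7 CPM), where CPM is the count scaled to a common library size. Genes of Purkinje cells, a defining cell type of the cerebellum, were present in every library. Libraries of the mutant group differed from each other in the levels of genes used outside the cerebellum. Hox genes are used in the hindbrain posterior to the cerebellum, and the 12 tested summed to 119 to 210 CPM in controls and to 6.58 to 172 CPM in mutants, with the lowest sum in mutant 4. Mutants 2 and 4 held 1733 and 1757 counts of the Y-linked Ddx3y and the other 6 libraries at most 3, so 2 mutants and no control carried Y-linked counts. Sample titles carry a letter, P or R, of unstated meaning, which 2 controls and 2 mutants share in each case: controls 1 and 2 and mutants 1 and 2 have P, the others R. In whole tissue, fewer cells of a type and less RNA per cell cannot be told apart.

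All 6 members had a higher mean in mutants, from 1.12-fold for Barhl2 to 1.77-fold for Mfap4, and the mutants were spread widely around these means. None passed when p-values were adjusted over all 15789 genes tested (edgeR quasi-likelihood test, 0 of 6 called). No gene at all passed that test, so the background share called higher was 0%. By DESeq2, 0 of 6 members were called, against a background of 0.249%. At an unadjusted edgeR p under 0.05, Atoh1, Pax6 and Mfap4 were higher, 3 of 6, where 6.94% of all genes tested were. The median log2 fold change of the 6 was 0.40, against 0.01 over all genes tested. Of all genes tested, 52.3% had a higher mean in mutants, the background for each count of higher means given here and below. For 0 of 6 members were all 4 mutants above all 4 controls, against 3.6% of all genes.

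**Figure D1:**
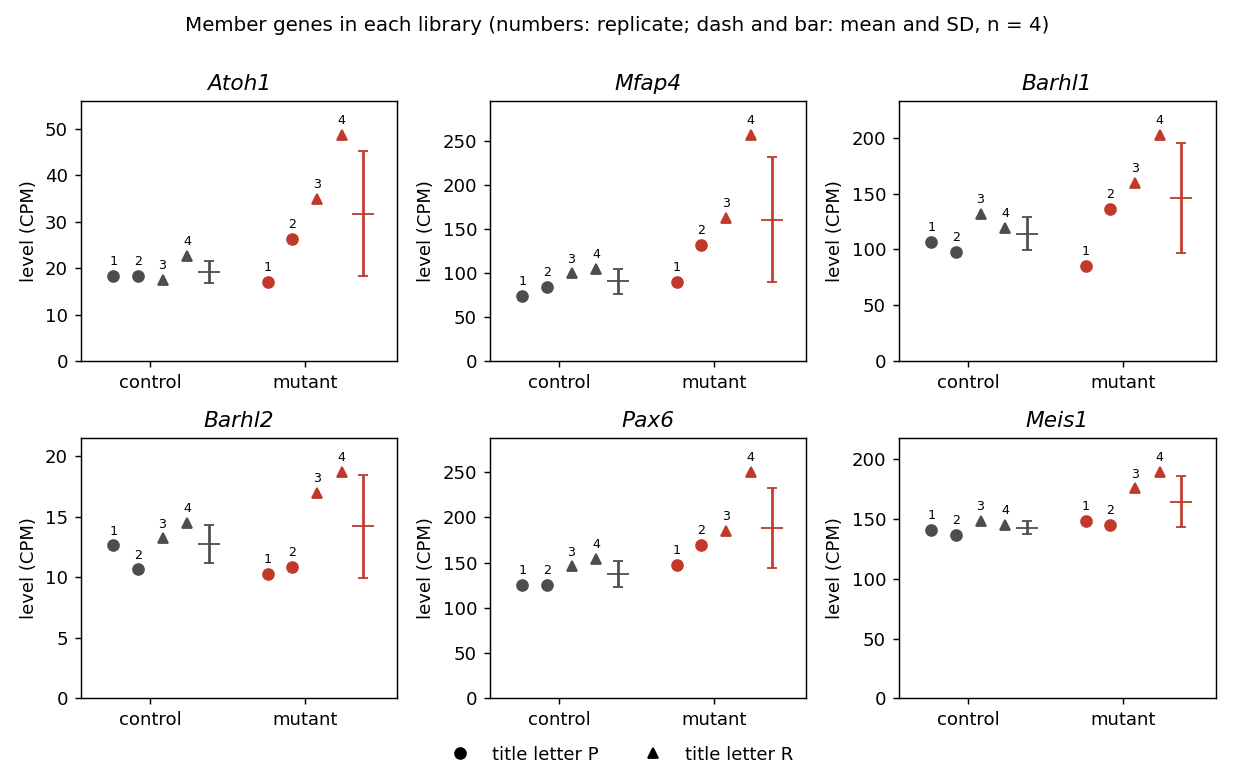
Level of each member in CPM (y axis, from 0) in the 4 control and 4 mutant libraries. Points are single pups numbered by replicate, circles have title letter P and triangles R, and the dash and bar give the group mean and SD. Mutant 4 is the highest point in each panel and mutant 3 the next, while mutant 1 lies within or below the range of the controls in each panel.

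Atoh1, on chromosome 6, plus strand, stood at 18.3, 18.3, 17.5 and 22.7 CPM in controls 1 to 4 and at 17.1, 26.25, 35.0 and 48.8 CPM in mutants 1 to 4. Mutant 1 was below every control and the other 3 mutants were above every control. Means ± SD were 19.2 ± 2.36 CPM for the controls (n = 4) and 31.8 ± 13.5 CPM for the mutants (n = 4). The log2 fold change was 0.73 (SE 0.26, edgeR unadjusted p = 0.0181, adjusted p = 0.381). Without mutant 4 it was 0.44 (edgeR adjusted p = 0.780).

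Barhl1, on chromosome 2, minus strand, stood at 107, 98.04, 132 and 119 CPM in controls and at 85.3, 137, 160 and 203 CPM in mutants. The order was that of Atoh1, with mutant 1 below every control and the other 3 mutants above, though mutant 2 exceeded the highest control by little. Its log2 fold change was 0.36 (SE 0.22, edgeR adjusted p = 0.467), and 0.15 without mutant 4 and 0.54 without mutant 1. Barhl2, on chromosome 5, minus strand, stood at 12.6, 10.7, 13.2 and 14.5 CPM in controls and at 10.3, 10.9, 16.9 and 18.7 CPM in mutants. Here only mutants 3 and 4 were above the controls, and mutants 1 and 2 lay at the low end of the control range or under it. Its log2 fold change of 0.16 (SE 0.20, edgeR adjusted p = 0.734) was smaller than its standard error and became -0.01 without mutant 4.

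Pax6, on chromosome 2, plus strand, stood at 126, 126, 146 and 154 CPM in controls and at 148, 169, 185 and 250 CPM in mutants. Mutant 1 lay within the control range and the other 3 mutants were above it. The log2 fold change was 0.45 (SE 0.15, edgeR unadjusted p = 0.0144, adjusted p = 0.381), and 0.28 without mutant 4. Pax6os1, an antisense gene at the same locus, had 23 to 40 counts in controls and mutants 1 to 3 and 92 in mutant 4. Strand use in the counting was not given in the sources used here, so reads of Pax6 and its antisense partner may not be separated. Pax6 itself had 3195 to 6737 counts, and the share of antisense reads in them was not tested.

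Meis1, on chromosome 11, minus strand, was the steadiest member in controls, at 141, 137, 149 and 145 CPM, and stood at 148, 145, 176 and 189 CPM in mutants. Mutants 1 and 2 lay within the control range and mutants 3 and 4 above it. Its log2 fold change was 0.21 (SE 0.10, edgeR adjusted p = 0.415), and 0.13 without mutant 4. Mfap4, on chromosome 11, plus strand, had the largest fold of the 6, with 74.0, 84.1, 99.5 and 105 CPM in controls and 90.2, 132, 163 and 257 CPM in mutants. Mutant 1 again lay within the control range and the other 3 mutants were above it. Its log2 fold change was 0.82 (SE 0.26, edgeR unadjusted p = 0.00982, adjusted p = 0.381), and 0.50 without mutant 4.

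All members but Meis1 varied more among mutants than most genes did. On the log2 scale, Atoh1 had an SD of 0.17 among controls and 0.64 among mutants, and Mfap4 0.23 and 0.63, where the median gene had 0.16 and 0.21. The mutant SD of Atoh1 was larger than that of 95.6% of genes tested, that of Mfap4 larger than 95.4% that of Barhl1 larger than 91.9%, that of Barhl2 larger than 86.5% and that of Pax6 larger than 74.2%, while that of Meis1 was larger than 43.6%. In all 6 members the level was highest in mutant 4 and next highest in mutant 3, an order that 12.1% of genes tested had. At least 3 mutants exceeded every control in 4 of 6 members, against 14% of genes. The mean over the 6 members, as log2 CPM less the control mean, was -0.12, 0.23, 0.56 and 0.92 for mutants 1 to 4, and -0.13 to 0.15 for the controls.

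**Figure D2:**
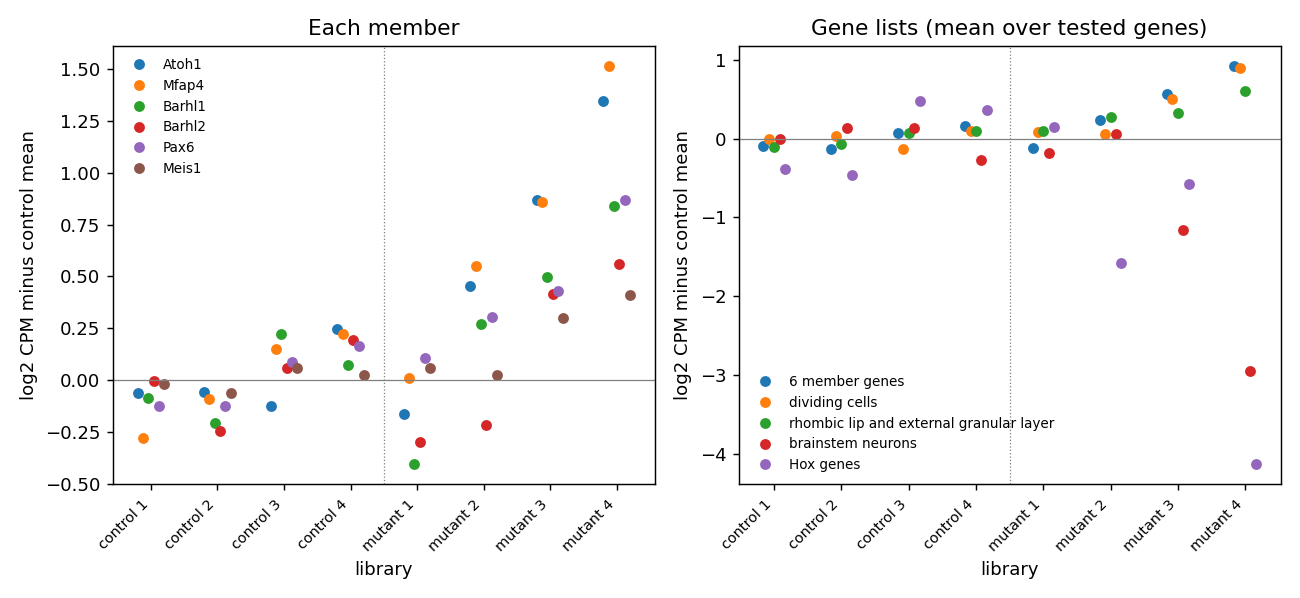
Log2 CPM less the mean of the 4 controls (y axis) in each of the 8 libraries (x axis), on the left for each member and on the right as the mean over the tested genes of 5 lists. The members reach 0.41 to 1.52 in mutant 4, where the Hox genes stand at -4.13 and the brainstem neuron genes at -2.95.

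Genes of adjacent tissue also varied across the mutant libraries. The Hox and brainstem neuron lists were lowest in mutant 4, where the members were highest, and the choroid plexus list was highest in mutant 2. Hox genes stood at 0.15, -1.58, -0.58 and -4.13 in mutants 1 to 4 on the same scale, with all 12 tested genes lower in the mean. None of the 15 Hox genes was at 0 counts in mutant 4. Genes of brainstem neurons, such as the motor neuron factor Isl1 and the acetylcholine-synthesising enzyme Chat, were lower in 7 of 9 cases and summed to 117 to 148 CPM in controls and 17.2 to 113 CPM in mutants. Choroid plexus genes, such as that of the secreted carrier Ttr, were higher in 9 of 10 cases and summed to 1561 to 3575 CPM in controls and 3876 to 6527 CPM in mutants. With the Hox genes as a covariate, log2 fold changes were 0.28 for Atoh1, 0.35 for Mfap4, 0.22 for Pax6, 0.12 for Meis1, 0.03 for Barhl1 and -0.04 for Barhl2. Without mutants 2 and 4, the libraries with Y-linked counts, they were 0.43 for Atoh1, 0.48 for Mfap4, 0.27 for Pax6, 0.18 for Meis1, 0.10 for Barhl1 and 0.09 for Barhl2. The part that adjacent tissue and sex had in the members' levels was not tested.

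**Figure D3:**
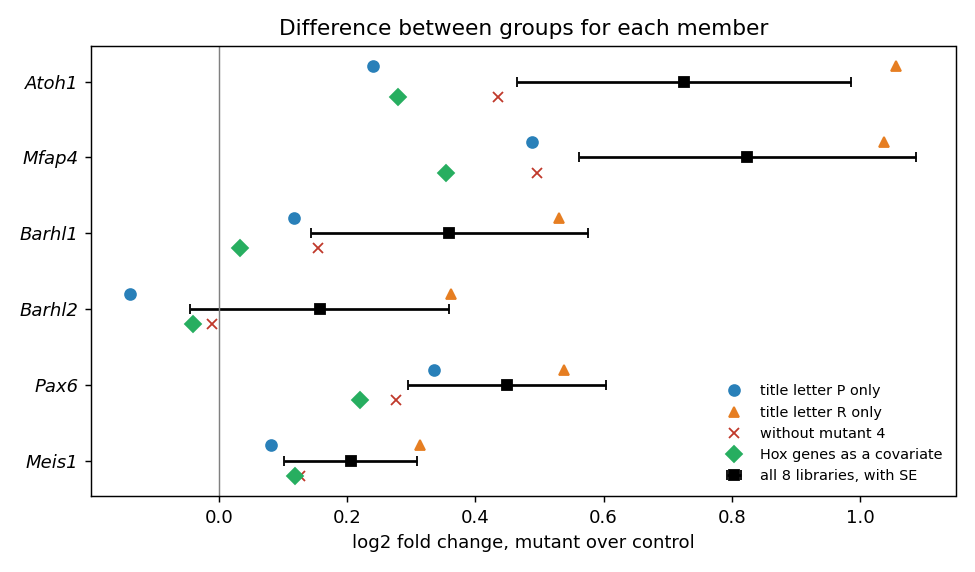
Log2 fold change of mutant over control (x axis) for each member: squares with SE bars for all 8 libraries, circles and triangles for ratios of group means within title letters P and R, crosses for the fit without mutant 4 and diamonds for the fit with the Hox genes as a covariate. Every alternative shown except letter R lies left of the square, and Barhl2 falls to the left of 0 in 3 of them.

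The difference was larger within title letter R than within P for each of the 6 members. For Atoh1 the ratio of group means was 0.24 on the log2 scale within P (18.3 and 21.7 CPM) and 1.06 within R (20.1 and 41.9 CPM). Barhl2 changed sign, at -0.14 within P (11.6 and 10.6 CPM) and 0.36 within R (13.9 and 17.8 CPM). Mfap4 stood at 0.49 and 1.04, Barhl1 at 0.12 and 0.53, Pax6 at 0.34 and 0.54, and Meis1 at 0.08 and 0.31. The interaction of genotype and letter did not pass for any of the 6 (edgeR adjusted p = 0.173 for Barhl2, 0.186 for Atoh1 and at most 0.581), where 3.2% of all genes passed. The mean of the controls with letter R was also above that of the controls with P for each member. It was 102 against 79.1 CPM in Mfap4 and 147 against 139 CPM in Meis1. For Atoh1 this rested on control 4 (22.7 CPM), as control 3 (17.5 CPM) was below both controls with P.

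Relative to Atoh1 in the same library, a measure that library scaling does not touch, the other members did not all keep their proportion. Barhl1 had 5.82, 5.34, 7.53 and 5.23 counts per Atoh1 count in controls and 5.003, 5.20, 4.57 and 4.16 in mutants. Each mutant was below each control, with mutant 2 and control 4 nearly equal. The mean log2 ratio was lower by 0.33 in mutants (a difference of -0.33, two-sided exact permutation test, p = 0.0286, the smallest that 4 against 4 allow). This was 1 of 5 ratios tested, with no adjustment, and the p was 0.0857 on exon bin counts, while without control 3 the difference was -0.21 (exact permutation p = 0.0571). Leaving out any 1 mutant also ended the call, with exact permutation p of 0.0571 to 0.114, and leaving out control 1, 2 or 4 did not. Barhl2 had 0.581 to 0.753 counts per Atoh1 count in controls and 0.603, 0.414, 0.484 and 0.383 in mutants, a log2 difference of -0.51 (exact permutation p = 0.0571). Meis1 differed by -0.43 (exact permutation p = 0.171) and Pax6 by -0.20 (exact permutation p = 0.229). Mutant 1 had the highest ratios to Atoh1 of all 8 libraries for Pax6 (8.67) and Meis1 (8.70). Without it the differences were -0.64 for Barhl2, -0.65 for Meis1 and -0.36 for Pax6. Each then had an exact permutation p of 0.0286, the smallest that this split allows. Taking out a library that ran against the difference favours that outcome. Leaving out any other library brought none of these ratios under 0.05, and all ratios share the Atoh1 count. Mfap4 kept closest to Atoh1, with 4.04 to 5.67 counts per Atoh1 count in controls and 4.66 to 5.29 in mutants, a difference of 0.11 (exact permutation p = 0.314).

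Exon bins, the pieces into which the authors' counting divided each gene, gave the same direction along each member. Atoh1 has 1 bin, Barhl2 3, Barhl1 and Mfap4 6 each, Meis1 13 and Pax6 16, and the mutant mean was the higher in all 45 of them. These bins are parts of genes whose means were already higher, so they are not separate results. In controls, the bin counts of Pax6 summed to 1.94 to 2.10 times its gene count, so reads can count in several bins. Ratios of group means ran from 1.69 to 1.80 across Mfap4, from 1.17 to 1.40 across Pax6, from 1.09 to 1.24 across Meis1, from 1.06 to 1.13 across Barhl2 and from 1.21 to 1.45 across Barhl1. Barhl1 bins 4 to 6 had the higher ratios of that gene (1.38, 1.45 and 1.38), on few counts, as they held 4.77%, 2.38% and 0.674% of its bin counts in controls. The use of bins did not pass for any of the 5 members with several bins (edgeR with Simes' method, adjusted p = 0.999998 in each), where 0.00749% of 13351 genes passed. The deposited bins carry no positions, so they were not matched to exons or isoforms.

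**Figure D4:**
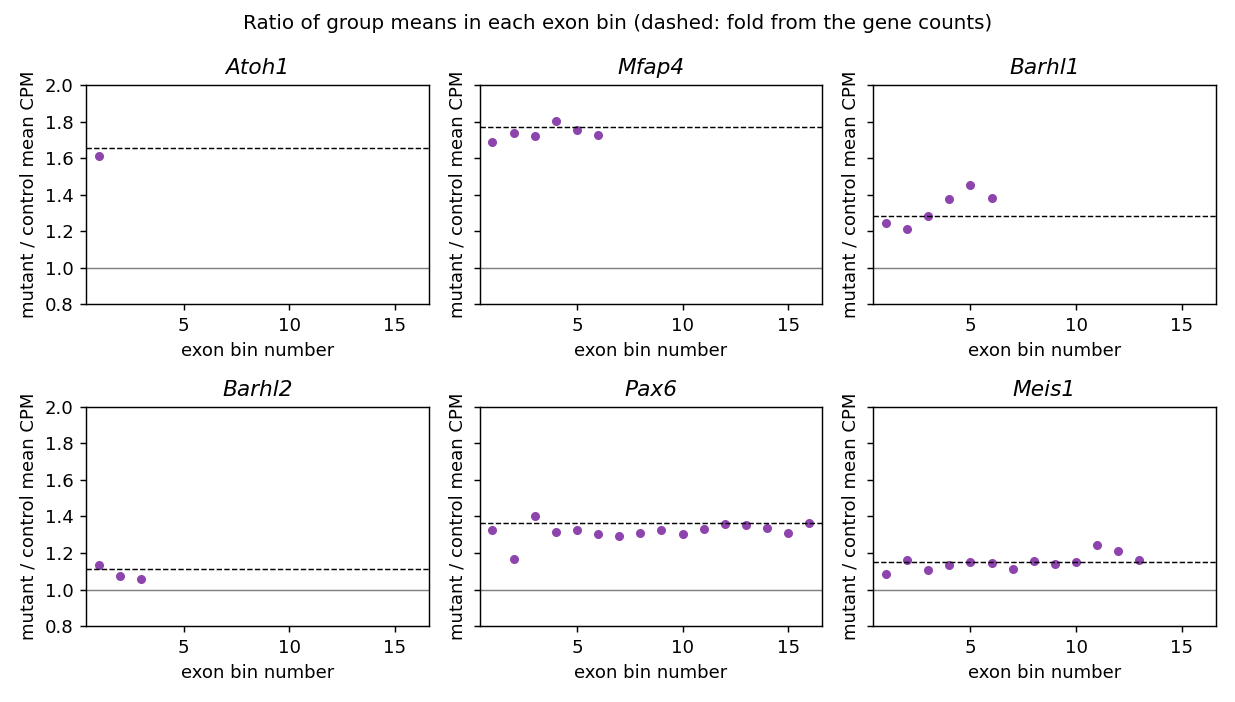
Ratio of mutant to control mean CPM (y axis) in each exon bin of each member (x axis, bin number), with a solid line at 1 and a dashed line at the fold from the gene counts. All 45 points lie above 1, and those of a gene stay near its dashed line.

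Genes whose pattern lay closest to that of Atoh1 were looked up among 12521 other genes with a mean of at least 5 CPM. Likeness was the root mean square difference of log2 CPM over the 8 libraries, each gene centred on its own mean. The 10 closest were Tead2, Slc29a1, Ostf1, Plekho2, Aurkb, Mycn, Gli2, Lama5, Fzd7 and Spc24, at 0.110 to 0.153, where the median gene was at 0.518. Tead2, a partner of YAP in transcription, stood at 67.1 to 82.3 CPM in controls and 66.6, 90.2, 127 and 159 CPM in mutants 1 to 4. Mycn, a Hedgehog-induced driver of precursor division, stood at 79.5 to 104 CPM in controls and 67.5, 99.9, 134 and 184 CPM in mutants. Gli2, the main activating Gli factor and a known target of Atoh1, stood at 39.7 to 55.8 CPM in controls and 50.3, 60.2, 80.002 and 117 CPM in mutants. All 3 were highest in mutant 4 and next in mutant 3, while mutant 1 was below every control for Tead2 and Mycn and within the control range for Gli2.

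Among the members themselves, Mfap4 was the sixth closest of 12526 genes to Atoh1, at 0.145. Barhl1 ranked 144, Pax6 184, Barhl2 618 and Meis1 1393 by the same measure, so the distance from Atoh1 grew in that order. Ranks taken from the other member were less close, though only slightly so for Mfap4. Atoh1 ranked 7 of 12526 genes from Mfap4, 846 from Barhl1, 2909 from Pax6, 6283 from Barhl2 and 10864 from Meis1. From Barhl2, Atoh1 was about as far as the median gene (0.326 against 0.325). From Meis1 it was farther than the median gene. Genes close to Mfap4 included Gli2 (0.124) and Etv5 (0.126). Those closest to Barhl1 were Tfap4, Tie1 and Col18a1, to Pax6 Nmnat1, Cbx2 and Chaf1a, to Barhl2 Sapcd2, 0610010K14Rik and Shf, and to Meis1 Ccdc134, Lsg1 and Imp4. These are descriptions over 8 libraries that share their groups, and no test was made of them.

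The list of partners and regulators of Atoh1, which also holds its target Gli2, was mixed. Nhlh1 and Zic1 in it are counted again among the rhombic lip and external granular layer genes below. Of 14 tested, 9 had higher and 5 lower means, with a median log2 fold change of 0.26, and 0 passed edgeR over all genes. Those with the smallest p were Nhlh1, a helix-loop-helix factor of newborn neurons, at 0.70 (SE 0.22), Gli2 at 0.71 (SE 0.23), Hes1, a Notch-induced repressor, at 0.55 (SE 0.20) and Tcf4, an E protein, at 0.27 (SE 0.11). Tcf12, another E protein, had 209 ± 11.9 CPM (SD, n = 4) for controls and 248.5 ± 32.4 CPM (SD, n = 4) for mutants. The Id genes, whose products keep E proteins from DNA, stood at -0.10 to -0.03 in log2 fold change, all 4 within their standard errors. Hes5, a relative of Hes1, went the other way from it at -0.30 (SE 0.18), with 3 of 4 mutants below every control.

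Other genes of the rhombic lip and external granular layer leaned the way of the members. Of 16 tested, 14 had higher means, where 52.3% of all genes tested did. The median log2 fold change of these 16 was 0.37, and 0 passed edgeR over all genes. Cxcr4, the chemokine receptor that holds precursors near the meninges, stood at 37.6 to 54.6 CPM in controls and at 51.5, 57.2, 83.8 and 108 CPM in mutants 1 to 4. Boc, a Sonic hedgehog co-receptor, had a log2 fold change of 0.57 (SE 0.18) and Gdf7, a roof plate growth factor, 0.99 (SE 0.30) at 0.735 and 1.45 CPM. Wnt1 and Olig3, early rhombic lip genes at low levels here, had lower means in mutants. Genes of granule neuron onset and maturation were higher in 11 of 14 cases, with a median log2 fold change of 0.29, and 0 passed edgeR. Among them Pde1c stood at 0.46 (SE 0.16) and Etv1 at 0.29 (SE 0.10), while the neuronal tubulin gene Tubb3 stood at -0.38 (SE 0.15) and the axonal adhesion gene Cntn2 at -0.01 (SE 0.16). Genes of dividing cells had higher means in 10 of 10 cases and summed to 1125 to 1301 CPM in controls and 1317 to 2307 CPM in mutants, with Mki67 at a log2 fold change of 0.55 (SE 0.15). Of 7 Hedgehog output genes, 6 had higher means and 0 passed edgeR, with the cyclin gene Ccnd2 at 0.42 (SE 0.15) and Gli1 at -0.46 (SE 0.21).

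Relatives of the members in their own gene families did not share the pattern as groups. Meis2, a paralog of Meis1, stood lower in the mutants with the highest Meis1, at 155 to 181 CPM in controls and 169, 141, 86.0 and 23.5 CPM in mutants 1 to 4. Its log2 fold change was -0.65 (SE 0.43, edgeR adjusted p = 0.505). Brainstem neuron genes were also lowest in mutants 3 and 4, and their part in this was not tested. Of the 10 Meis and Pbx relatives, 4 had higher and 6 lower means, with Tgif1 at 0.75 (SE 0.21) and Tgif2 at 0.49 (SE 0.18). Of the Pax relatives, 4 of 8 passed the filter, with 2 higher and 2 lower means: Pax3 at 0.34 (SE 0.14), Pax7 at 0.73 (SE 0.59), Pax2, a gene of interneuron precursors, at -0.17 (SE 0.20) and Pax8 at -1.11 (SE 0.61). Of 11 microfibril and elastic fibre genes, 5 had higher and 6 lower means, and they summed to 357 to 424 CPM in controls and 388 to 415 CPM in mutants. Ltbp1, with the smallest p of these 11, stood at 0.40 (SE 0.14), with all 4 mutants above all 4 controls. Mfap5 stood at -0.88 (SE 0.31) and Mfap2 at 0.01 (SE 0.12). Genes of meninges and fibroblasts, cells that can also make Mfap4, summed to 830 to 1504 CPM in controls and 939 to 1313 CPM in mutants, with 3 higher and 7 lower means. The part of these cells in the level of Mfap4 was not tested.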

How the data were processed

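PolyA libraries were made from TRIzol-extracted RNA with a TruSeq kit, 1 per pup, per the labels. The authors deposited raw counts per gene and per exon bin, not normalized. Per the submitters' processing notes, TopHat, HTSeq, DESeq2 and the mm9 build were used, with no version. For annotation, strand use and counting options, the setting was not given in the sources used here. Each gene table ends with 5 lines that name no gene, and these (24.8 to 34.3% of all entries) were left out.

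The gene test was edgeR 4.0.16 under R 4.3.3 (filterByExpr, TMM, robust quasi-likelihood F test, genotype as the only term, Benjamini-Hochberg over all 15789 genes tested, threshold 0.05). DESeq2 1.42.0 was the alternative. Exon bins were tested with diffSpliceDGE over 152302 bins. Log2 CPM used a prior count of 2. The standard error is the log2 fold change over the root of F. Ratios to Atoh1 used exact permutation. No 2 replicates matched within counting error (chi-square per degree of freedom 7.42 to 81.0). Steps were tested on simulated data. The members, the gene lists, the tests and the alternatives were chosen with earlier results of these data known. Text names all members, the genes closest to each in pattern, and up to 4 genes of a list by smallest edgeR p, plus family relatives. A gene that this rule names is not reported here. Wnt1, Olig3, Tcf12, Hes5, Tubb3, Cntn2, Ttr, Pcp4, Gad1, Zic1, the Id genes and the Ddx3y and Pax6os1 counts were named after their values were seen.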

Additional observations from a re-analysis of the deposited data

Results flagged for a closer look

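Atoh1 in control 4 stood at 22.7 CPM, apart from the other 3 controls at 17.5 to 18.3 CPM. The ratio of Pax6 to Atoh1 counts in control 3 was 8.32, apart from 6.78 to 6.86 in the other controls. Both were picked out by a gap to the nearest library that exceeded Dixon's limit for 4 samples, which chance passes in about 1 of 20 groups. Every member and every ratio to Atoh1 was screened, in controls and in mutants, so flags can arise by chance. The ratios share the Atoh1 count and are not independent.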

How the results depend on the processing

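The log2 fold changes of Atoh1, Barhl1, Pax6, Meis1 and Mfap4 stayed positive and short of the threshold under each of 15 alternatives, among them DESeq2, other size factors, no filter, the title letter as a block, summed bins and each library left out. Barhl2 turned to -0.040 with the Hox genes as a covariate, and leaving out 1 library gave -0.010 (without mutant 4) to 0.28; the cause was not tested. Genes called over the whole table numbered 0 with edgeR and 52 with DESeq2, 40 of them higher in mutants, and 0 to 1 with 1 library left out, the 1 without mutant 1. The Barhl1 to Atoh1 ratio difference was -0.32 on summed exon bins and no longer passed; with 1 library left out it was -0.39 to -0.21. The ranges were -0.64 to -0.42 for Barhl2, -0.36 to -0.11 for Pax6, -0.65 to -0.26 for Meis1 and 0.03 to 0.20 for Mfap4. Bin use was called in 0 members under every alternative run. The alternative without both libraries with Y-linked counts was chosen after seeing the data. No paired analysis was possible because replicate numbers were given in accession order and the labels tie them to no shared animal or litter. Every member had at least 235 counts in each library, and there were 4 pups per group.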

Other observations

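Other cell types of the cerebellum were measured in the same libraries. All 7 Purkinje cell genes found had higher means in mutants (median log2 fold change 0.33), among them the nuclear receptor Rora at 0.32 (SE 0.14). One of the 7, Pcp4, was nearly level at 0.006 (SE 0.12). All 6 genes of GABAergic interneurons had lower means (median -0.54), with the vesicular transporter Slc32a1 at -0.57 (SE 0.18). Of these, Gad1 at -0.07 (SE 0.10) and Pax2 at -0.17 (SE 0.20) were within their standard errors. Slc6a5, at -0.92 (SE 0.43), is also in the list of brainstem neurons. As mean log2 CPM less the control mean, this list stood at -1.37 in mutant 4 and at -0.41 to -0.26 in mutants 1 to 3. The part that adjacent tissue had in this was not tested. Of 8 oligodendrocyte lineage genes, 7 had lower means (median -0.51), with Sox10, a lineage factor, at -0.59 (SE 0.15) and the myelin gene Cnp at -0.71 (SE 0.19). Astroglial genes were split 4 higher to 3 lower, genes of cerebellar nuclei and unipolar brush cells 2 to 5, and midbrain tectum genes 3 to 1 of 4 tested. None of these genes passed edgeR with adjustment over all genes.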
